A study of Mus musculus with 14 samples.

Results

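The genes described here are 9 long noncoding RNA genes that host small nucleolar RNAs (snoRNAs): Snhg1, Snhg3, Snhg5, Snhg6, Snhg8, Snhg12, Snhg15, Gas5 and Zfas1. They were chosen by name, with earlier results of these libraries known, and make up 9 of the 54532 genes in the deposited count table. After a filter on low counts, 8 of the 9 stood among the 15915 genes tested, and Snhg3 did not. Because the choice was made with results in view, the fold changes and adjusted p-values below say where each gene stands among all genes tested and are not independent evidence about the group.

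A snoRNA host gene is transcribed and spliced like a messenger RNA gene, but its main products sit in the introns. A released intron that holds a snoRNA is trimmed down to it. Many snoRNAs pair with ribosomal RNA and direct a chemical change of single nucleotides. Of these, box C/D snoRNAs guide ribose methylation and box H/ACA snoRNAs guide conversion of uridine to pseudouridine. The spliced exons of many hosts are read by ribosomes and destroyed by nonsense-mediated decay, so their level follows both transcription and decay. Many hosts start with a terminal oligopyrimidine (TOP) tract, the run of C and T at the cap that also marks messenger RNAs of ribosomal proteins.

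RNA was sequenced from cells sorted out of the submandibular gland, a salivary gland, of adult TertCreERT2/+Rosa26LSL-tdTomato/+ mice. In these mice a Cre recombinase driven from the Tert locus, active in the presence of tamoxifen, switches on the red reporter tdTomato; all 4 groups carry both alleles. The groups were Tert+ cells after a radiation dose of 15 Gy (RT, n = 4), Tert+ cells without radiation (no RT, n = 3), Tert- cells after RT (n = 4) and Tert- cells without RT (n = 3). Tert+ cells were sorted as DAPI-EpCAM+tdTomato+, Tert- cells as DAPI-EpCAM+tdTomato-, and 1 ng of RNA went into each library. The labels give no interval between radiation and the sort. Titles were followed throughout, since the field for cell type contradicts them for each of the 14 libraries. Every Tert+ against Tert- direction depends on that choice, as do the population names in the RT comparisons. Tert itself had 15 counts in all in Tert+ no RT and 63 in Tert- no RT, and 101 in Tert+ RT and 24 in Tert- RT. Which label is right was not tested. Whether replicates were separate animals is not stated, and p-values reflect the spread among these libraries, which may be technical. Library numbers are higher for the 8 RT libraries than for the 6 others, and a preparation batch and RT cannot be told apart.

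Libraries held 5986984 to 11642156 counts in Tert+ RT, 9220126 to 15943597 in Tert+ no RT, 5520412 to 10953634 in Tert- RT and 9687159 to 13454637 in Tert- no RT. The sort selected EpCAM, an epithelial surface protein, but B cell RNA was abundant: Cd79a, a signalling chain of the B cell receptor, had a median CPM of 2794, against 43.6 for Epcam. CPM is a library's count scaled to 1000000 reads of its TMM-adjusted total. The mitochondrially encoded share of counts was 1.13 to 2.86% in the 8 RT libraries and 0.418 to 1.22% in the 6 no-RT libraries. The summed level of 5 germinal centre B cell markers (Mef2b, Rgs13, S1pr2, Gcsam, Bcl6) was 94.3 to 129 CPM after RT and 268 to 643 CPM without RT. Of these markers Gcsam was at 0 in 4 libraries, Rgs13 in 3 and S1pr2 in 1, and Mef2b and Bcl6 were counted in all 14. Bcl6 had a median of 107 CPM, against 2.74 CPM for Gcsam to 10.7 CPM for Mef2b among the others, so it weighs most in the sum. The part of either measure in the host gene differences was not tested. In bulk libraries, fewer cells of a type and less RNA per cell cannot be told apart.

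Positions below are on the mouse build mm10. Snhg3 and Snhg12 both lie on chromosome 4, and Snhg6 and Gas5 on chromosome 1. Annotation of snoRNA genes on the host's own strand placed 33 inside them: 10 in Gas5, 8 in Snhg1, 5 in Snhg12, 3 in Zfas1, 2 each in Snhg3 and Snhg5, and 1 each in Snhg6, Snhg8 and Snhg15. These are annotated records and not all distinct snoRNAs. Snord80 in Gas5 and Snora16a in Snhg12 have overlapping records, and a record in Gas5 annotated as a snoRNA gene is named Mir5117. Zfas1, Snhg15 and Snhg6 are among the 4 hosts that passed the threshold when RT and no-RT libraries of both populations were compared, and a snoRNA gene inside each is shown as an example of what they host. Snora9 lies within an exon of Snhg15 in the annotation used, and not in an intron. Capitals mark the C box (TGATGA) and D box (CTGA) of the box C/D snoRNAs Snord12 and Snord87, and the ACA box of the H/ACA snoRNA Snora9. Sequences run 5′ to 3′ on the gene's strand and come from the GENCODE transcripts.
Snord12, inside Zfas1, chr2:167065276-167065365, mm10, + strand: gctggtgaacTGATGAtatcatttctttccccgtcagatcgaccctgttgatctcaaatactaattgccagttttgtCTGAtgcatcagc
Snora9, inside Snhg15, chr11:6528033-6528165, mm10, - strand: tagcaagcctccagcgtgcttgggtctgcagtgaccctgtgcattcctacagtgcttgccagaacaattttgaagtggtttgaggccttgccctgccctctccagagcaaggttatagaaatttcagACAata
Snord87, inside Snhg6, chr1:9942463-9942549, mm10, - strand: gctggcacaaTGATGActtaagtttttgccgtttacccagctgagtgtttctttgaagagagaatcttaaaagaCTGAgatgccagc

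The snoRNAs themselves were hardly counted in these libraries. Of the 33 hosted snoRNA genes, 32 had 0 counts in all 14 libraries, which by counting error alone allows up to 3 counts each over the 14, or 0.0213 CPM. This limit does not cover reads that were given to the host or left uncounted. Snord87 alone was counted, with 47 reads in 10 libraries. It had 5, 0, 0 and 0 reads in the Tert+ RT libraries, 0, 3 and 2 in Tert+ no RT, 6, 6, 8 and 9 in Tert- RT, and 6, 1 and 1 in Tert- no RT. Snord87 in Snhg6 and Snora73b in Snhg3, which was at 0 in all 14 libraries, lie outside annotated exons, the other 31 of the 33 lie at least partly within annotated exons of their host, and how reads shared by a snoRNA and its host were counted is not given in the sources used here. Over the whole table, 266 of 1507 snoRNA genes had at least 1 count and 146 had at least 10. The values below are counts given to the host genes and do not measure the snoRNAs. Whether they include reads from snoRNAs cannot be told.

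**Figure D1:**
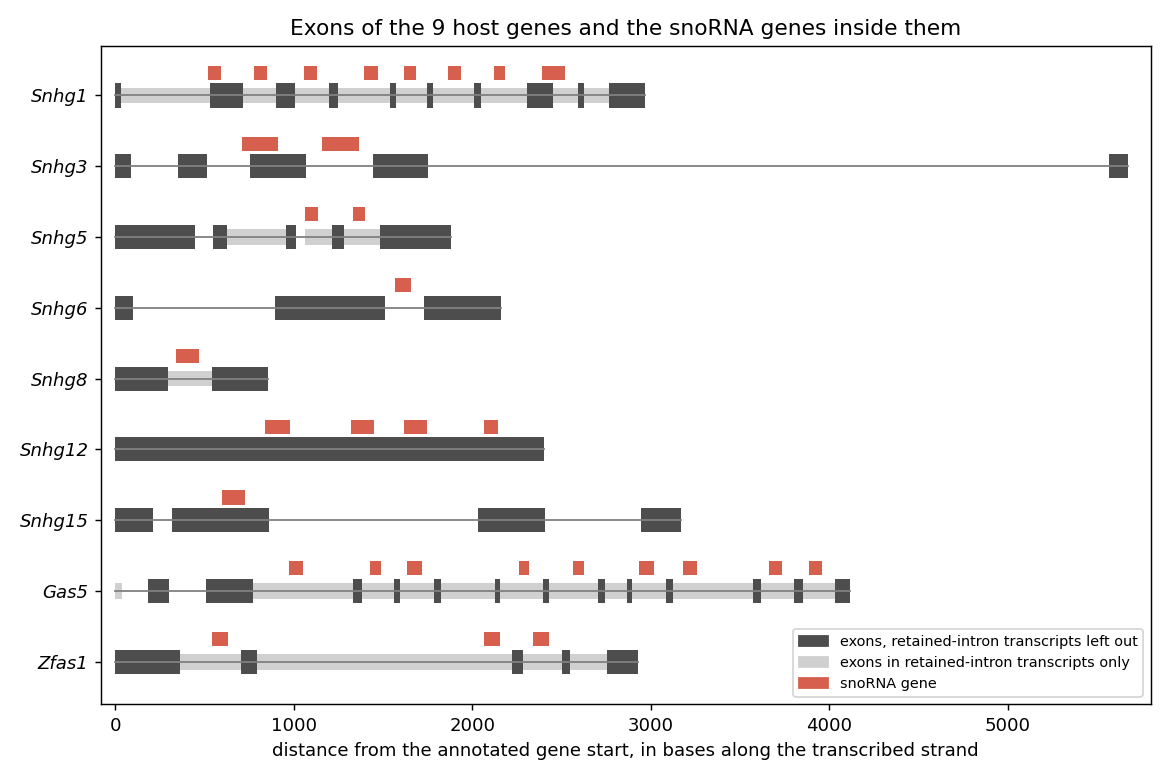
Annotated exons of the 9 host genes and the snoRNA genes inside them, by distance from the gene start in bases along the transcribed strand. Dark boxes are exons of transcripts other than retained-intron ones, grey boxes are exon sequence found only in retained-intron transcripts, and red boxes are the 33 snoRNA genes, some of which overlap; Gas5 and Snhg1 carry the most, with 10 and 8.

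The start of each host was examined because a TOP tract is known from many hosts and from ribosomal protein genes. Windows of 20 bases before and 40 bases from the RefSeq start (build GRCm38.p6, the assembly behind mm10) were available for 8 of the 9 genes, all but Snhg6. A C followed by at least 4 C or T, on the gene's own strand and within 10 bases of the start, was present in 5 of the 8, namely Snhg3, Snhg5, Snhg8, Snhg12 and a start of Gas5. It was present in 30.7% of all 32851 RefSeq start windows. Counted by gene, with any window, it was present in 9297 of 27025 genes (34.4%) and in 39 of 61 ribosomal protein genes (63.9%). Within 3 bases of the start it was found in 4 of the 8 hosts, in 11.5% of all windows and in 25 of the 61 ribosomal protein genes (41.0%). The 11.5% counts windows, while hosts and ribosomal protein genes were counted by gene. The 5 hosts with the tract near the RefSeq start are shown except Snhg3, followed by Snhg15, Snhg1 and Zfas1, whose RefSeq windows hold none, and by the first 40 bases of a GENCODE transcript each of Zfas1 and Snhg6 that opens with such a tract. Capitals mark the tract.
Gas5, chr1:161035146-161035205, + strand: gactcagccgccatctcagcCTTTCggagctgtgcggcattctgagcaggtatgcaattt
Snhg12, chr4:132308658-132308717, + strand: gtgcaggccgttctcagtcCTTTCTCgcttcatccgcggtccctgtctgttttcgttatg
Snhg8, chr3:123508297-123508356, - strand: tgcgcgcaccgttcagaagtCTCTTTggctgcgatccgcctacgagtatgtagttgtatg
Snhg5, chr9:88522858-88522917, - strand: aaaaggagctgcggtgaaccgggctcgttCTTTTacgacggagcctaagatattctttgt
Snhg15, chr11:6528721-6528780, - strand: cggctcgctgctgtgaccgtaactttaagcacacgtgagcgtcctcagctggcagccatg
Snhg1, chr19:8723467-8723526, + strand: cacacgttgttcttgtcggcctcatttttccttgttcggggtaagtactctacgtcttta
Zfas1, chr2:167062914-167062973, + strand: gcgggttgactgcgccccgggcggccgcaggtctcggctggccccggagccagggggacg
Zfas1 transcript 202, chr2:167063221-167063260, + strand: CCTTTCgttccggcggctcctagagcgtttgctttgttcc
Snhg6 transcript 203, chr1:9944079-9944118, - strand: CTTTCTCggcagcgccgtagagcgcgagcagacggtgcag
Of the tested hosts, Gas5, Snhg12, Snhg8 and Snhg5 hold the tract near a RefSeq start and did not pass the threshold after RT over both populations. Snhg15, Snhg1 and Zfas1 hold none there and did. Snhg6, which has no RefSeq window, passed too, and it and Zfas1 each have a GENCODE transcript that opens with the tract. A link between tract and call was not tested. A match describes these letters only.

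Zfas1 (ENSMUSG00000074578, chromosome 2, 167062934 to 167065862, + strand), which hosts 3 box C/D snoRNA genes and starts head to head with Znfx1, was the most even of the 9 after RT. Its level was 52.4, 51.1, 52.5 and 53.0 CPM in Tert+ RT libraries, against 16.1, 21.05 and 18.2 CPM in Tert+ no RT libraries. In Tert- it was 50.8, 59.2, 49.3 and 54.4 CPM after RT, against 32.2, 24.8 and 20.6 CPM without RT. Every one of the 8 RT libraries lay above every one of the 6 no-RT libraries. Zfas1 averaged 52.3 ± 0.833 CPM in Tert+ RT and 18.5 ± 2.47 CPM in Tert+ no RT (SD, n = 4 and 3), a log2 fold change of 1.50 (SE 0.196, edgeR quasi-likelihood adjusted p = 0.00297). It averaged 53.4 ± 4.38 CPM in Tert- RT and 25.9 ± 5.91 CPM in Tert- no RT (SD, n = 4 and 3), a log2 fold change of 1.04 (SE 0.192, edgeR adjusted p = 0.0221). Zfas1 and Znfx1 share 82 exon bases on opposite strands, and whether the counting used strand is not given in the sources used here. Znfx1, which encodes an RNA helicase-like antiviral protein, had log2 fold changes after RT of -0.35 in Tert+ (SE 0.207, edgeR adjusted p = 0.391) and 0.20 in Tert- (SE 0.208, edgeR adjusted p = 0.679).

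Snhg15 (ENSMUSG00000085156, chromosome 11, 6525591 to 6528760, - strand), the host of Snora9, had the largest fold change of the 8 tested genes in Tert+ and also over both populations. Its level was 55.2, 38.8, 49.3 and 38.6 CPM in Tert+ RT libraries, against 10.99, 15.4 and 13.7 CPM in Tert+ no RT libraries. In Tert- it was 74.9, 59.2, 78.8 and 83.1 CPM after RT, against 35.5, 11.7 and 9.97 CPM without RT. All RT libraries lay above all no-RT libraries, although Tert- no RT replicate 1, at 35.5 CPM, came close to the lowest RT library at 38.6 CPM. Snhg15 averaged 45.5 ± 8.17 CPM in Tert+ RT and 13.3 ± 2.20 CPM in Tert+ no RT (SD, n = 4 and 3), a log2 fold change of 1.76 (SE 0.365, edgeR adjusted p = 0.0288). It averaged 74.0 ± 10.4 CPM in Tert- RT and 19.1 ± 14.3 CPM in Tert- no RT (SD, n = 4 and 3), a log2 fold change of 1.95 (SE 0.366, edgeR adjusted p = 0.0232).

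Snhg1 (ENSMUSG00000108414, chromosome 19, 8723475 to 8726443, + strand), which hosts 8 snoRNA genes, lies within 1000 bases of Slc3a2, the heavy chain of amino acid transporters. Its level was 22.3, 28.6, 22.5 and 12.2 CPM in Tert+ RT libraries, against 6.60, 7.65 and 6.53 CPM in Tert+ no RT libraries. In Tert- it was 33.7, 20.1, 34.4 and 27.3 CPM after RT, against 12.9, 4.46 and 4.41 CPM without RT. The groups did not overlap within either population, but the highest no-RT library, Tert- replicate 1, exceeded the lowest RT library, Tert+ replicate 4. The log2 fold change was 1.62 in Tert+ (SE 0.413), where the edgeR adjusted p of 0.0561 missed the threshold, and 1.98 in Tert- (SE 0.418, edgeR adjusted p = 0.0327). Slc3a2 had a log2 fold change of 0.40 over both populations (SE 0.170, edgeR adjusted p = 0.137).

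Snhg6 (ENSMUSG00000098234, chromosome 1, 9941959 to 9944118, - strand), the host of Snord87, had 17.3, 14.6, 12.3 and 13.3 CPM in Tert+ RT libraries, against 10.5, 2.59 and 3.72 CPM in Tert+ no RT libraries. In Tert- it had 28.8, 22.3, 27.9 and 15.2 CPM after RT, against 16.5, 4.81 and 2.73 CPM without RT. The groups were apart in Tert+ and overlapped in Tert-, where replicate 1 without RT exceeded replicate 4 after RT. Snhg6 did not pass within a population, with log2 fold changes of 1.37 in Tert+ (SE 0.576, edgeR adjusted p = 0.226) and 1.55 in Tert- (SE 0.574, edgeR adjusted p = 0.163). Its exons share 127 bases with Mcmdc2 on the opposite strand, and use of strand in the counting is not known. Mcmdc2 had 67 and 13 counts in all in Tert+ RT and Tert+ no RT, and 78 and 32 in Tert- RT and Tert- no RT. Its log2 fold changes after RT were 2.18 in Tert+ (SE 1.04, edgeR adjusted p = 0.284) and 1.61 in Tert- (SE 1.000, edgeR adjusted p = 0.414), and reads of the shared bases cannot be told apart.

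Gas5 (ENSMUSG00000053332, chromosome 1, 161034422 to 161038539, + strand), named for its accumulation in growth-arrested cells and the host of 10 snoRNA genes, had the highest CPM of the 9. Its level was 100.3, 84.5, 173 and 157 CPM in Tert+ RT libraries, against 55.8, 101 and 93.1 CPM in Tert+ no RT libraries. In Tert- it was 97.2, 131, 175 and 156 CPM after RT, against 100.4, 112 and 79.2 CPM without RT. The groups overlapped in both populations. The log2 fold change was 0.63 in Tert+ (SE 0.275, edgeR adjusted p = 0.244) and 0.53 in Tert- (SE 0.274, edgeR adjusted p = 0.318).

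Snhg5 (ENSMUSG00000097195, chromosome 9, 88521050 to 88522929, - strand), which hosts the pair Snord50a and Snord50b, had 23.9, 10.5, 14.7 and 13 CPM in Tert+ RT libraries, against 5.25, 9.80 and 8.20 CPM in Tert+ no RT libraries. In Tert- it had 10.9, 5.84, 15.6 and 20.8 CPM after RT, against 16.4, 5.24 and 5.56 CPM without RT. The groups were apart in Tert+ and overlapped in Tert-, and the log2 fold changes of 1.00 (SE 0.512) and 0.55 (SE 0.506) did not pass.

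Snhg8 (ENSMUSG00000104960, chromosome 3, 123507552 to 123508404, - strand), the host of Snora24, varied least with RT in Tert+. Its level was 13.5, 17.3, 16.4 and 14.6 CPM in Tert+ RT libraries, against 13.4, 12.3 and 11.5 CPM in Tert+ no RT libraries. In Tert- it was 18.7, 11.7, 17.1 and 12.7 CPM after RT, against 11.4, 8.65 and 9.66 CPM without RT. The groups were apart in both populations, in Tert+ by less than 0.1 CPM, and the log2 fold changes of 0.31 (SE 0.284) and 0.60 (SE 0.287) did not pass.

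The remaining pair on chromosome 4 was scarce. Snhg12 (ENSMUSG00000086290, 132308623 to 132311024, + strand), which hosts 5 snoRNA genes, had 2.44, 3.07, 1.09 and 3.76 CPM in Tert+ RT, against 1.83, 0.822 and 1.14 CPM in Tert+ no RT, and 5.44, 2.08, 4.76 and 4.23 CPM in Tert- RT, against 3.17, 2.18 and 1.05 CPM in Tert- no RT. The groups overlapped in both populations. Snhg3 (ENSMUSG00000085241, 132348014 to 132353686, - strand), the host of Snora73a and Snora73b, had 5, 5, 1 and 0 counts in Tert+ RT libraries, 1, 3 and 2 in Tert+ no RT, 0, 4, 1 and 13 in Tert- RT, and 11, 2 and 2 in Tert- no RT, and was not tested. It shares 135 exon bases with Rcc1 on the same strand and 705 with Gm17300 on the opposite strand, so even these counts are uncertain.

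**Figure D2:**
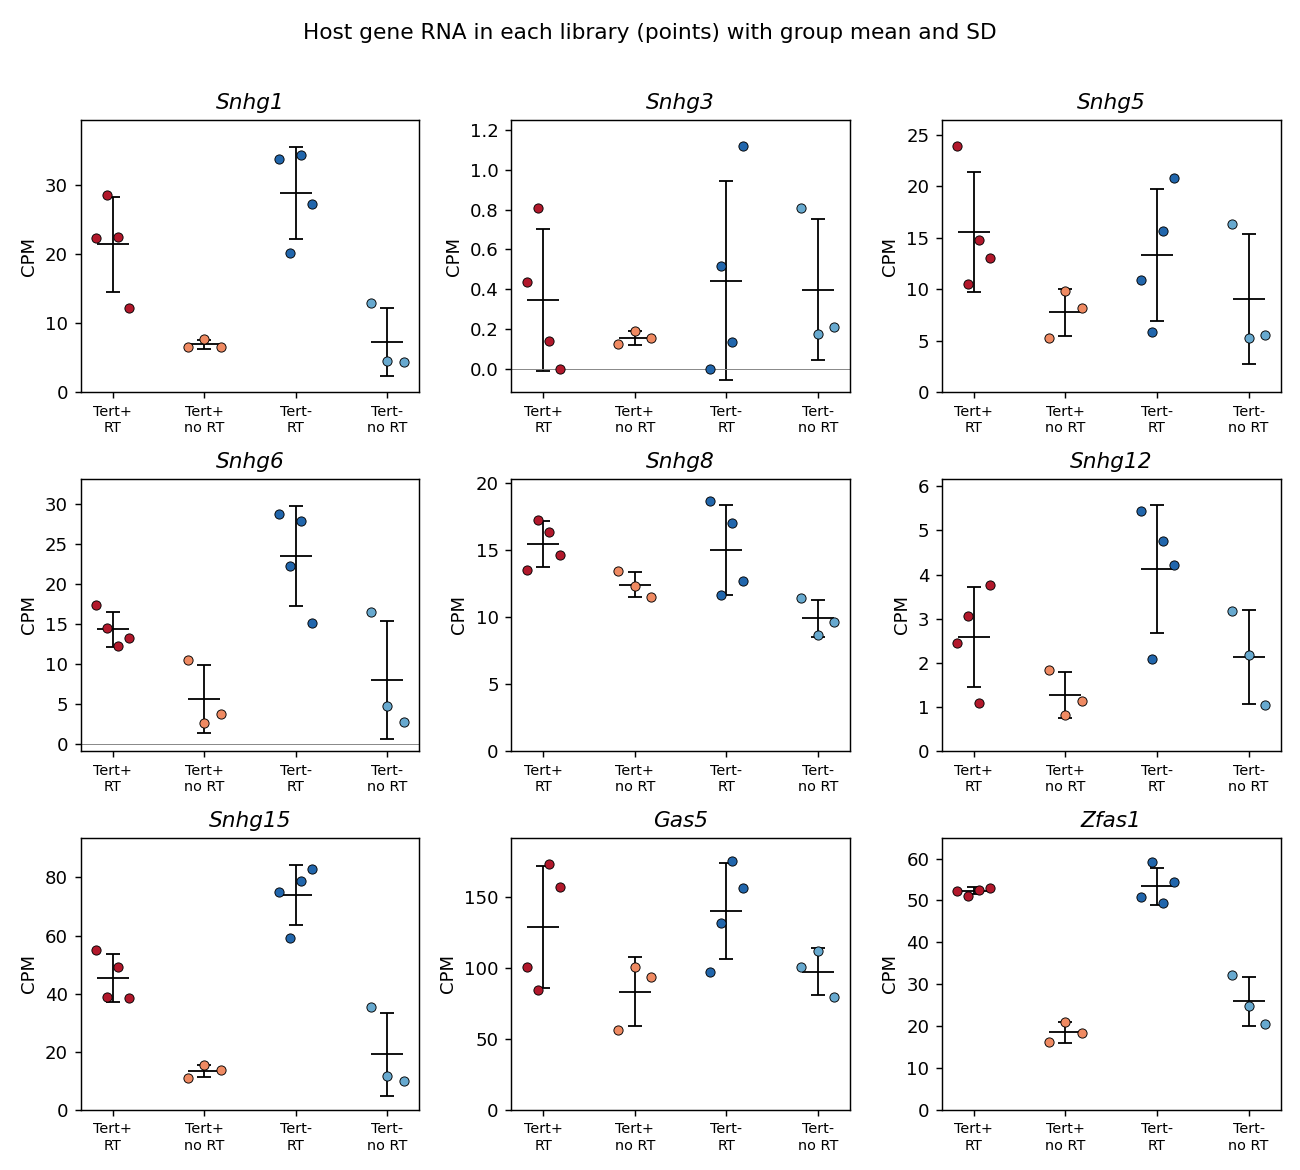
CPM of each host gene in every library (points), with the group mean (horizontal bar) and SD (whiskers); each panel has its own linear axis in CPM. Zfas1 and Snhg15 are higher in all 8 RT libraries than in all 6 no-RT libraries, and the light blue point that stands above its group in most panels is Tert- no RT replicate 1.

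In Tert+ cells, then, Zfas1 and Snhg15 were higher after RT, 2 of the 8 genes tested, where 1.11% of all genes tested were higher. The fold changes of all 8 were above 0, from 0.31 to 1.76 on the log2 scale with a median of 1.21, against a median of -0.00 and 49.7% above 0 over all genes tested. In 6 of the 8 the Tert+ RT libraries all lay above the Tert+ no RT libraries, as they did in 7.28% of all genes tested. These counts restate the pattern for which such a group can be picked and are read no further. Zfas1 kept its call without any single library. Snhg15 lost its call (edgeR adjusted p 0.0506 to 0.112) without Tert+ no RT replicate 1, 2 or 3 or Tert+ RT replicate 1, 2 or 3, which left 1 gene, at log2 fold changes of 1.64 to 1.88. Of all genes tested 1.98% passed in either direction with all 14 libraries, and 0.131% and 0.125% without Tert+ no RT replicate 2 and 3. Snhg1 was called as well without Tert+ RT replicate 4 (log2 fold change 1.83, edgeR adjusted p = 0.0338).

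In Tert- cells Zfas1, Snhg15 and Snhg1 were higher after RT, 3 of the 8, where 0.817% of all genes tested were higher. All 8 fold changes were above 0 here too, from 0.53 to 1.98 with a median of 0.99, against -0.02 and 49.2% above 0 over all genes. The ranges were apart for 4 of the 8, against 9.70% of all genes tested. None of the 3 calls was left without Tert- no RT replicate 2 or 3 or without Tert- RT replicate 3, and 1 was left without Tert- RT replicate 2. In the first 3 of these fits the log2 fold changes were 1.73 to 1.89 for Snhg1, 1.65 to 1.92 for Snhg15 and 0.91 to 1.08 for Zfas1, and the share of all genes past the threshold in either direction was 0.113%, 0.105% and 0.132%, against 1.62% with all 14 libraries. Snhg1 also lost its call without Tert- RT replicate 1 (edgeR adjusted p = 0.0632), replicate 2 (0.0577) or replicate 4 (0.0576). With only the 7 Tert- libraries in the fit none was left either, with edgeR adjusted p-values of 0.0585 for Zfas1, 0.0590 for Snhg15 and 0.0625 for Snhg1. Snhg6 was called as well without Tert- no RT replicate 1 (log2 fold change 2.65, edgeR adjusted p = 0.0176). The macrophage markers C1qa, C1qb, C1qc, Csf1r and Adgre1 summed to 221 to 1064 CPM in Tert- RT and 1407 to 1755 CPM in Tert- no RT, and their part in these fold changes was not tested.

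Averaged over both populations, which uses the same 14 libraries again, 4 of the 8 were higher after RT, where 6.36% of all genes tested were higher. These were Snhg15 (log2 fold change 1.86, SE 0.258, edgeR adjusted p = 8.9e-04), Snhg1 (1.80, SE 0.294, edgeR adjusted p = 0.00188), Snhg6 (1.46, SE 0.406, edgeR adjusted p = 0.0283) and Zfas1 (1.27, SE 0.137, edgeR adjusted p = 2.01e-04). Zfas1 ranked 9 and Snhg15 49 of 15915 by p. Gas5 (0.58, SE 0.194, edgeR adjusted p = 0.0617), Snhg8 (0.46, edgeR adjusted p = 0.149), Snhg5 (0.78, edgeR adjusted p = 0.167) and Snhg12 (0.99, edgeR adjusted p = 0.221) did not pass. All 8 RT libraries lay above all 6 no-RT libraries for 2 of the 8, Zfas1 and Snhg15, as in 1.82% of all genes tested. Zfas1, Snhg15 and Snhg1 kept their calls without any single library, and Snhg6 lost its call (edgeR adjusted p 0.0561 to 0.0765) without Tert+ no RT replicate 2 or 3, Tert- no RT replicate 2 or 3, or Tert- RT replicate 3. Gas5 passed when Tert+ RT replicate 1, Tert+ RT replicate 2 or Tert- RT replicate 1 was left out (edgeR adjusted p 0.0379 to 0.0465). DESeq2 called 6 of the 8, adding Snhg8 and Gas5, and 19.1% of all genes in either direction, against 13.4% by edgeR.

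**Figure D3:**
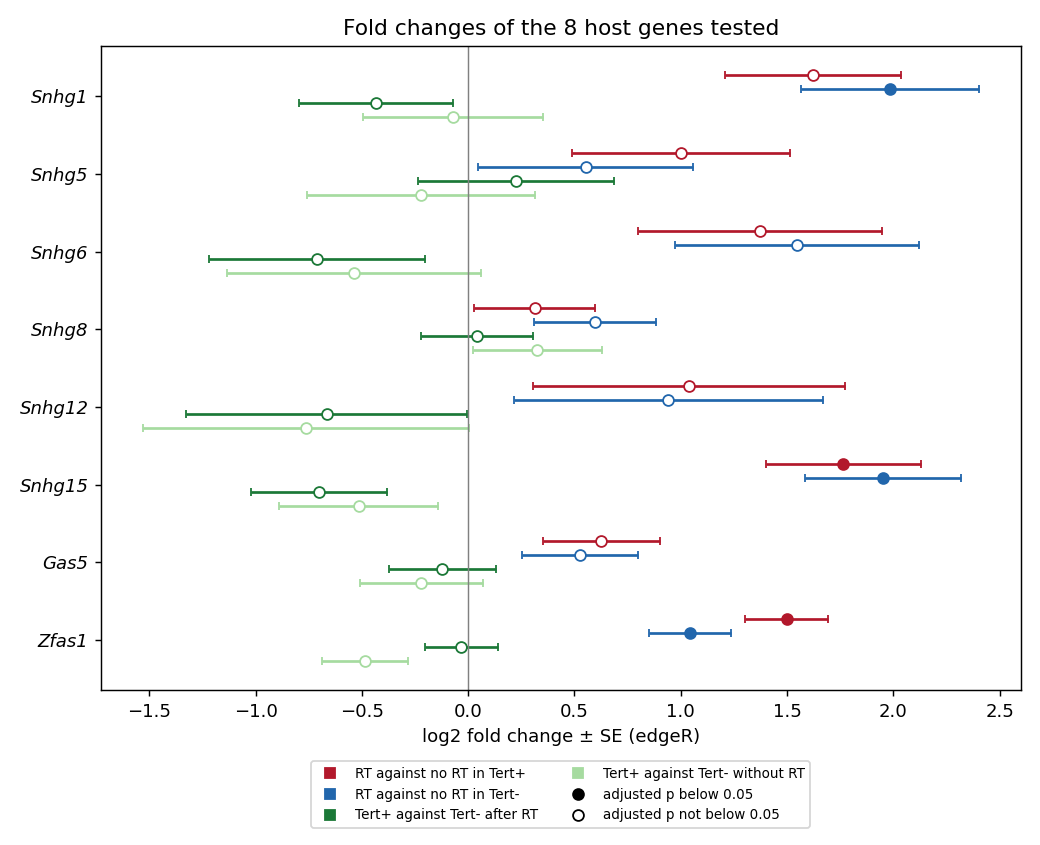
Log2 fold change of the 8 tested host genes in 4 comparisons; points are edgeR estimates, whiskers are 1 SE on each side, and filled points have an adjusted p below 0.05. Both RT comparisons lie to the right of 0 for all 8 genes, while the Tert+ against Tert- comparisons lie on both sides of 0 and none passed.

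The RT fold changes of the 2 populations were set against each other in the difference of the RT effects, Tert+ minus Tert-. None of the 8 passed, nor did any of the 15915 genes (0%); at an unadjusted p under 0.05 there were 0 of the 8 and 578 genes (3.63%), and DESeq2 called 0 of the 8. The difference was 0.46 for Zfas1 (SE 0.266, edgeR adjusted p = 1) and -0.19 for Snhg15 (SE 0.491, edgeR adjusted p = 1). For Snhg1 it was -0.36 (SE 0.559, edgeR adjusted p = 1). The SEs of the difference ran from 0.266 to 0.981 on the log2 scale over the 8 genes, against RT fold changes of 0.31 to 1.98 within the populations.

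Between the populations no host gene passed. After RT, Snhg15 was the one gene of the 8 whose groups were apart: its 4 Tert+ RT libraries, at 38.6 to 55.2 CPM, lay below its 4 Tert- RT libraries, at 59.2 to 83.1 CPM. The log2 fold change was -0.70 (SE 0.319, edgeR adjusted p = 0.663). Of all genes tested, 0.0126% passed in either direction and the ranges were apart in 4.88%. Snhg15 was also the 1 gene of the 8 with an unadjusted p under 0.05, as for 7.39% of all genes tested, and DESeq2 and limma voom called 0 of the 8. Snhg6 had 14.4 ± 2.19 CPM in Tert+ RT and 23.6 ± 6.28 CPM in Tert- RT (SD, n = 4 each), with a log2 fold change of -0.71 (SE 0.510, edgeR adjusted p = 0.859). Zfas1 differed least, by -0.03 (SE 0.173, edgeR adjusted p = 0.994). The macrophage markers summed to 65.7 to 166 CPM in Tert+ RT and 221 to 1064 CPM in Tert- RT, with each marker but Adgre1 counted in all 14 libraries, and their part in the Snhg15 and Snhg6 values was not tested.

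Without RT, Zfas1 had 16.1 to 21.05 CPM in Tert+ and 20.6 to 32.2 CPM in Tert-, a log2 fold change of -0.49 (SE 0.202, edgeR adjusted p = 1). The macrophage marker sum was 93.1 to 188 CPM in Tert+ no RT and 1407 to 1755 CPM in Tert- no RT, and its part in the values of this comparison was not tested. Zfas1 was the 1 gene of the 8 with an unadjusted p under 0.05, as for 4.50% of all genes tested. Of all genes tested 0.0377% passed the adjusted threshold, and DESeq2 and limma voom called 0 of the 8. Snhg8 was the 1 gene with groups apart, at 11.5 to 13.4 CPM in Tert+ and 8.65 to 11.4 CPM in Tert- (log2 fold change 0.33, SE 0.303, edgeR adjusted p = 1), where 8.87% of all genes had ranges apart. Over both RT states 0 of the 8 passed by edgeR, DESeq2 or limma voom, against 0.220% of all genes by edgeR. Snhg15 alone of the 8 had an unadjusted p under 0.05 there, as for 8.24% of all genes, with a log2 fold change of -0.61 (SE 0.246, edgeR adjusted p = 0.525).

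Tert- no RT replicate 1 stood apart from the other no-RT libraries for these genes. It had the highest level of the 6 no-RT libraries for 6 of the 8 tested genes, was above its own group's mean for 8 of 8, and its median deviation from that mean was 0.82 on the log2 scale. These counts were not made over all genes, so whether they are particular to the host genes cannot be told. In this library 18617 genes had a count, against 16935 to 17763 in the other no-RT libraries. The same library had a summed T cell marker level of 249 CPM, against 35.5 and 44.7 CPM in the other two Tert- no RT libraries and 261 CPM in Tert+ no RT replicate 1, and a fibroblast marker sum of 68.9 CPM, the highest of the 14. The part of these cells in its host gene levels was not tested. Without this library the pooled RT comparison called 5 of the 8, adding Snhg5 (log2 fold change 1.16, edgeR adjusted p = 0.0366), the Tert+ comparison called 3, adding Snhg1, and the Tert- comparison called 4, adding Snhg6. Calls over all genes moved with them, in either direction: 15.1% in the pooled comparison against 13.4% with all 14 libraries, 3.04% against 1.98% in Tert+, and 5.40% against 1.62% in Tert-.

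Levels were also put per kilobase of the table's gene length to set the genes side by side on that length. In Tert+ RT the order was Gas5 at 34.2 ± 11.4, Snhg15 at 33.4 ± 6.01, Snhg8 at 18.1 ± 1.999, Zfas1 at 17.8 ± 0.284, Snhg6 at 12.5 ± 1.92, Snhg5 at 8.98 ± 3.37, Snhg1 at 7.21 ± 2.30, Snhg12 at 1.08 ± 0.473 and Snhg3 at 0.35 ± 0.364 CPM per kilobase (SD, n = 4). Gas5 and Snhg15, Snhg8 and Zfas1, and Snhg5 and Snhg1 differed by less than their SDs. In Tert+ no RT the order began with Gas5 at 22.2 ± 6.40, Snhg8 at 14.6 ± 1.12 and Snhg15 at 9.82 ± 1.62 CPM per kilobase (SD, n = 3), so Snhg15 stood below Snhg8 there. In Tert- RT it began with Snhg15 at 54.4 ± 7.68, Gas5 at 37.2 ± 8.93 and Snhg6 at 20.6 ± 5.48 CPM per kilobase (SD, n = 4). In Tert- no RT it began with Gas5 at 25.8 ± 4.42, Snhg15 at 14.02 ± 10.5 and Snhg8 at 11.6 ± 1.64 (SD, n = 3). In that group Snhg15 stood above Snhg8 in replicate 1 alone, at 26.1 against 13.4 CPM per kilobase. In replicates 2 and 3 it was at 8.62 and 7.34, against 10.1 and 11.3 for Snhg8. The length counts the exons of all annotated transcripts, some of which run through introns, so for Snhg1, Snhg8, Snhg12 and Zfas1 it equals the whole gene, and for Gas5 and Snhg5 nearly so. Per kilobase of spliced RNA these levels would be higher and the order could differ, so it is no ranking of spliced RNA.

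The 8 genes were also compared with each other over the libraries. Pearson's r between log2 CPM of 2 hosts ran from 0.236 to 0.955 over the 28 pairs of genes (median 0.653, n = 14 libraries, which share the RT difference). It was highest for Snhg1 with Snhg15 and lowest for Snhg8 with Gas5. After each group's mean was taken away, r ran from -0.315 to 0.847 with a median of 0.317, and 23 of the 28 pairs were above 0. Shares over pairs of all genes were not computed, so neither range is read as particular to these genes. Tert- no RT replicate 1 was above its group mean for 8 of 8 genes, and Tert- no RT replicate 3 for 0 of 8. The part of these libraries in r was not tested. The highest was Snhg5 with Snhg15, and the 4 pairs of Gas5 with Snhg1, Snhg6, Snhg8 and Snhg12 were below 0, as was Snhg8 with Zfas1. The genes most like the mean scaled profile of the 8, out of 8364 candidates whose mean log2 CPM reached 3 or more, were Jarid2 (r = 0.964), H2-Q6 (r = 0.956), Slf2 (r = 0.955), Nfat5 (r = 0.953), Nfatc3 (r = 0.949), Nktr (r = 0.945), Ebf1 (r = 0.944) and Impact (r = 0.944), each over 14 libraries. Jarid2 is a cofactor of the Polycomb complex and Ebf1 a transcription factor of B cells. The RT fold changes of these 8 most similar genes ran from 0.53 for Ebf1 to 1.47 for Impact on the log2 scale. The mean scaled profile itself divided by RT, at -1.33 to 0.10 in no-RT libraries and 0.24 to 1.10 in RT libraries. Picking genes for likeness to it favours RT fold changes above 0, so these values are not independent evidence.

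Other noncoding hosts were read beside the 9. Of 10 further hosts in the table, Dancr, Epb41l4aos and Snhg genes outside the 9, 9 were tested. Over both populations 2 were higher and 0 lower after RT, where 6.36% of all genes tested were higher. The fold changes of all 9 were above 0, as for 49.4% of all genes tested, with a median of 0.51 on the log2 scale. Those of the scarcest were smaller than their SEs. They were 0.16 for Snhg14 (SE 1.145), 0.396 for Snhg11 (SE 1.457), 0.43 for Dancr (SE 0.875) and 0.135 for Snhg10 (SE 0.626). The mean levels of these genes ran from 0.47 CPM for Snhg14 to 1.46 CPM for Snhg10, so their signs are uncertain. Within Tert+ 7 of the 9 were above 0, against 49.7% of all genes, with Snhg10 at -0.26 and Snhg14 at -1.59, and within Tert- 8 of the 9, against 49.2%, with Dancr at -0.42. Snhg4 had 24.7, 35.9, 41.4 and 17.8 CPM in Tert+ RT, against 6.35, 15.2 and 7.21 CPM in Tert+ no RT, and 27.9, 28.8, 33.2 and 28.4 CPM in Tert- RT, against 28.1, 11.5 and 11.6 CPM in Tert- no RT. Its log2 fold change over both populations was 1.21 (SE 0.285, edgeR adjusted p = 0.0130). For Snhg17 it was 0.94 (SE 0.278, edgeR adjusted p = 0.0369).

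Protein-coding genes whose span holds an annotated snoRNA gene on the same strand went in both directions. Whether each of them yields a snoRNA was not tested. Of 178 such genes tested, ribosomal protein genes left out, 25 were higher and 14 lower after RT over both populations. Their median was 0.01 on the log2 scale. Of all genes tested, 6.36% were higher and 13.4% passed in either direction. Snhg11, annotated as protein-coding, is in this list and among the further noncoding hosts above. Higher ones included Eif2ak3, a kinase of the unfolded protein response (log2 fold change 1.07, edgeR adjusted p = 0.00131), and Eif4a2, a translation initiation helicase (0.62, edgeR adjusted p = 7.56e-04). Taf1d, a subunit of the RNA polymerase I selectivity factor whose introns carry many snoRNAs, was higher in Tert+ (1.14, SE 0.234, edgeR adjusted p = 0.0273), with 66.8 ± 5.69 CPM in Tert+ RT and 30.2 ± 11.5 CPM in Tert+ no RT (SD, n = 4 and 3). Gsr, glutathione reductase, was lower after RT in Tert- (-2.64, SE 0.413, edgeR adjusted p = 0.0144).

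Genes known for TOP messenger RNAs and their regulators were also followed. In this comparison 6.36% of all genes tested were higher and 13.4% passed in either direction. Of 80 cytosolic ribosomal protein genes tested, 37 were higher and 0 lower after RT over both populations, with a median of 0.39 on the log2 scale. Rpl17 (0.67, edgeR adjusted p = 0.00405), Rpl12 (0.67, edgeR adjusted p = 0.00131) and Rps18 (0.57, edgeR adjusted p = 0.00462) were among them. In Tert- alone 1 of the 80 was higher, where 0.817% of all genes tested were. Ribosomal protein genes have close copies, and how reads shared with them were counted is not stated. Of 16 other genes with TOP messenger RNAs, many but not all of them for translation factors, 1 was higher and 1 lower. These were Rack1 (0.29, edgeR adjusted p = 0.0489) and Nap1l1 (-0.62, edgeR adjusted p = 0.00293), neither of them a translation factor. Among 10 regulators of TOP messenger RNAs, the RNA-binding protein Larp4 (1.03, edgeR adjusted p = 0.0398) and the kinase Mtor (0.77, edgeR adjusted p = 0.0417) were higher and the translation repressor Eif4ebp1 was lower (-0.71, edgeR adjusted p = 0.00423).

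The proteins that bind or build snoRNAs and those that degrade host transcripts gave smaller lists, to be read against the 13.4% of all genes tested that passed in either direction and the 6.36% that were higher. Of 8 core proteins of snoRNA particles, 0 were higher and 2 were lower after RT over both populations, with a median of -0.08 on the log2 scale. Both belong to the box H/ACA particle: Dkc1, the pseudouridine synthase (-0.69, SE 0.167, edgeR adjusted p = 0.0153), and Nhp2 (-0.53, SE 0.154, edgeR adjusted p = 0.0338). Dkc1 averaged 76.6 ± 10.98 CPM in Tert+ RT and 119 ± 14.5 CPM in Tert+ no RT, and 65.6 ± 16.4 CPM in Tert- RT and 110 ± 37.3 CPM in Tert- no RT (SD, n = 4 and 3 in each pair). Of 11 assembly factors 0 were higher and 2 lower, the AAA+ ATPases Ruvbl1 (-0.67, edgeR adjusted p = 0.00718) and Ruvbl2 (-0.51, edgeR adjusted p = 0.0383). Of 16 nonsense-mediated decay factors 4 were higher and 1 lower, with a median of 0.14. The higher ones included Smg1, the kinase of the pathway (1.05, SE 0.251, edgeR adjusted p = 0.0139), Upf3b (0.84, SE 0.192, edgeR adjusted p = 0.0106) and Upf1, its helicase (0.94, edgeR adjusted p = 0.0205). The lower one, named after its value was seen, was Magohb, a core protein of the exon junction complex (-1.10, edgeR adjusted p = 0.0406). Of 16 genes of ribosome biogenesis and RNA polymerase I, 1 was higher (Gnl3, 0.71, edgeR adjusted p = 0.0161) and 1 lower (Ubtf, -0.49, edgeR adjusted p = 0.00762).

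**Figure D4:**
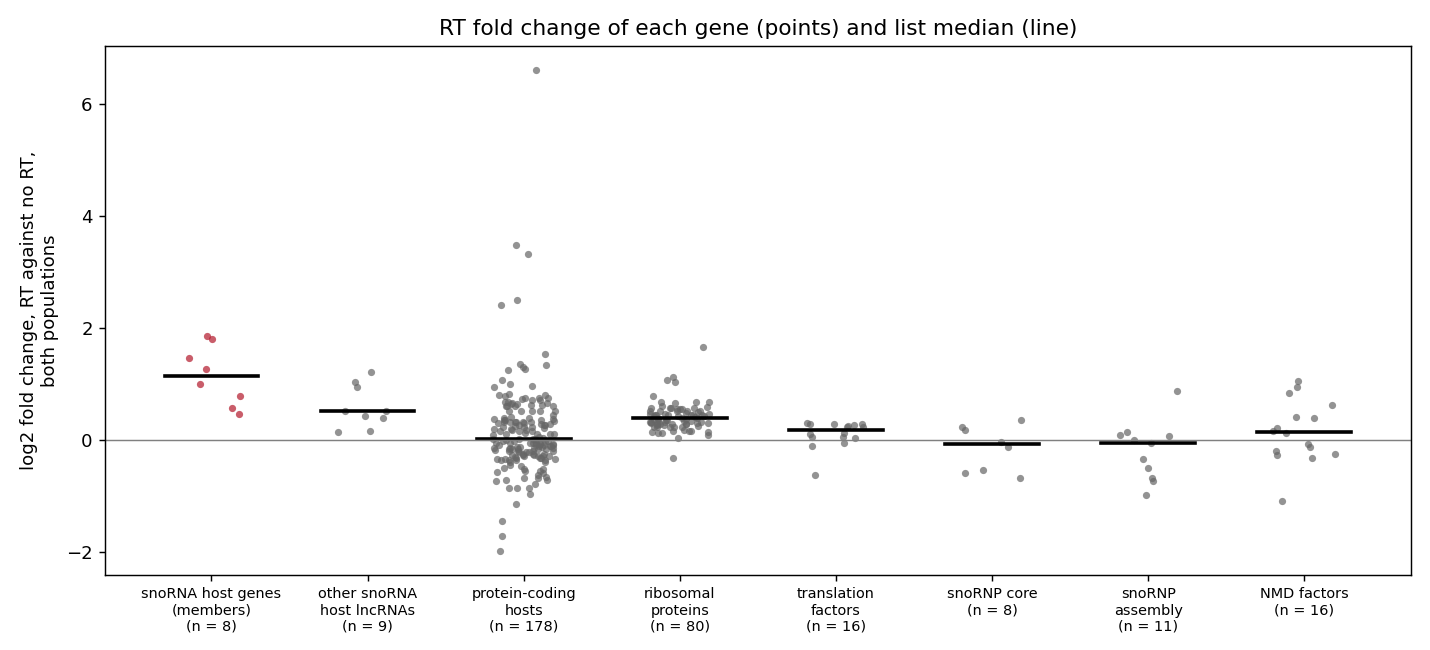
Log2 fold change of RT against no RT over both populations for each tested gene (points) of the host gene group and 7 other lists, with the list median (line). The 8 tested host genes, in red, run from 0.46 to 1.86 around a median of 1.13, and the 80 ribosomal protein genes around 0.39, while protein-coding hosts have a median of 0.01.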

How the data were processed

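RNA-seq counts of reads per gene in 14 libraries were deposited by the authors as 1 table without normalisation, per the file headers. The submitters' processing notes name HISAT2 and the build mm10; the counting program, annotation release and use of strand are not given in the sources used here. All sample columns were used. Groups follow the sample titles. The 9 genes and all gene lists were chosen with earlier results of these data known.

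These counts went through edgeR 4.0.16 in R 4.3.3: filterByExpr on the 4 groups (15915 genes kept), TMM scaling, 1 coefficient per group over 14 libraries, robust quasi-likelihood F tests (two-sided) and Benjamini-Hochberg adjustment over all genes tested, with a threshold of 0.05. The SE is the absolute log2 fold change divided by the square root of F. Counting intervals and the limit of 3 counts for a listed 0 cover counting error only. The test was also run on simulated counts, and the outcome is not given or relied on here. Named genes were the 9 genes, from each list up to 4 tested genes with the smallest p past the threshold, or the 2 most abundant where none passed, and the 8 genes most like the hosts over 14 libraries by Pearson's r of log2 CPM with a prior count of 2. Neighbouring genes were named for position. Gene positions, exons, snoRNA genes and snoRNA sequences come from the GENCODE annotation M21, where all 9 genes have the table's coordinates, as do the transcript starts named so, and start windows come from RefSeq. Alternatives were DESeq2 1.42.0, limma 3.58.1 voom, RLE scaling, no filter, only the groups compared, a replicate block, leaving out each library and, chosen after seeing the data, leaving out Tert+ RT replicates 3 and 4 together. Some genes of the marker and pathway lists are not reported here, and sums and counts leave them out.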

Additional observations from a re-analysis of the deposited data

How the results depend on the processing

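The host genes past the threshold after RT numbered 2 in Tert+, 3 in Tert- and 4 over both populations. They kept these numbers with RLE scaling, without the low count filter and with limma voom. DESeq2 gave 3, 3 and 6, where it called 7.18%, 8.89% and 19.1% of all genes in either direction, against 1.98%, 1.62% and 13.4% by edgeR. With only the groups compared in the fit, 2 were called in Tert+ and 0 in Tert-. Without both Tert+ RT libraries 3 and 4, 1 was called in Tert+. Leaving out 1 library at a time gave 1 to 3 in Tert+, 0 to 4 in Tert- and 3 to 5 over both, and the cause was not tested. The Tert+ against Tert- comparisons and the difference of the RT effects gave 0 of the 8 under each of these alternatives that could be fitted. Deviations of same-numbered Tert+ and Tert- libraries correlated at -0.049 to 0.119, so the numbers are not known to pair libraries. For the Tert comparisons and the difference of the RT effects, the replicate block joined these libraries within an RT state and gave 0 host genes. For the RT comparisons it was the replicate number over all 4 groups and gave 2, 3 and 4. The RT calls were not tested with same-numbered Tert+ and Tert- libraries treated as dependent.

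Signs changed only for genes not past the threshold, in the comparisons of Tert and in the difference of the RT effects; the cause was not tested. On the log2 scale, between the populations without RT, Snhg1 was 0.059 with voom and 0.13 with the block, and leaving out single libraries gave -0.33 to 0.62 for Snhg1, -0.50 to 0.50 for Snhg5, -1.34 to 0.54 for Snhg6, -0.82 to 0.28 for Snhg15 and -0.38 to 0.004 for Gas5. After RT they gave -0.079 to 0.50 for Snhg5, -0.066 to 0.16 for Snhg8, -0.30 to 0.034 for Gas5 and -0.068 to 0.017 for Zfas1. Over both RT states they gave -0.38 to 0.086 for Snhg1 and -0.15 to 0.35 for Snhg5, which was -0.012 with RLE and -0.013 with DESeq2. For the difference of the RT effects Snhg6 was 0.11 with voom and Snhg12 was -0.008 with the block, and leave-outs gave -0.30 to 0.73 for Snhg5, -1.27 to 0.63 for Snhg6, -0.31 to 0.44 for Snhg12, -1.005 to 0.12 for Snhg15 and -0.13 to 0.26 for Gas5.

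Depth limits Snhg3 and Snhg12, with 0 to 13 and 8 to 49 counts per library. For the snoRNAs, low depth and the way shared reads were counted cannot be told apart.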
